A study of Mus musculus with 6 samples.

Results

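The genes described here are 32 genes of the endoplasmic reticulum (ER) stress response, listed by name for their known roles, with earlier results of these data known, out of 22964 genes in the deposited table. All 32 had a row in the table, and 31 passed the filter on low counts; Chac1 did not. By their known regulation, 24 were placed in the Atf6/Xbp1 arm (the sensors Atf6 and Ern1, the factor Xbp1, and the chaperones, disulfide isomerases and degradation genes) and 8 in the Atf4 arm (the sensor Eif2ak3, the factors Atf4 and Ddit3, and Trib3, Asns, Chac1, Sesn2 and Ppp1r15a). Herpud1 answers to both arms and was counted in the Atf6/Xbp1 arm.

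The study measured messenger RNA of lymphatic endothelial cells of the meninges (the coverings of the brain) in 3 samples from old mice (20 to 24 months) and 3 samples from young mice (2 to 3 months). All mice were untreated wild-type C57BL/6J males, bought from a commercial breeder or supplied by the national ageing colony, and which sample had which source is not labelled. Cells were sorted as negative for CD45 (a leukocyte protein) and positive for CD31 and podoplanin, and the small amounts of RNA were amplified before sequencing. The labels do not say whether a sample was 1 animal or a pool, so the p-values speak of the variation among these 6 samples alone, part of which may be technical.

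Secreted and membrane proteins fold in the ER, and when unfolded protein builds up there 3 membrane sensors start a transcriptional answer known as the unfolded protein response. Atf6 is cut to release a transcription factor, and Ern1 (also called IRE1) splices the Xbp1 messenger so that it encodes an active factor; these factors raise chaperones and degradation genes. Eif2ak3 (also called PERK) phosphorylates the translation factor eIF2, which lowers general protein synthesis and favours translation of Atf4, a factor for amino acid supply and, through Ddit3 (CHOP), for cell death. Much of this control acts on splicing, cleavage, phosphorylation and translation, which counts per gene do not show. Lymphatic endothelial cells secrete proteins such as reelin, Ccl21 and multimerin through this organelle.

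Promoter windows of RefSeq starts in GRCm38.p6, each 300 bases from 250 before to 50 after a start, were at hand for 28 of the 32 genes; those of Atf6, Hyou1, Manf and Derl1 were not analysed here. Of the 29 windows of the 28 genes, 26 had bases after the start that were found in a transcript of the gene. Motif letters were searched on both strands. The ER stress element, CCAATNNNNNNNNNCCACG, is bound by Atf6 and Xbp1 together with the CCAAT-binding factor NF-Y. It was found in 8 of the 28 genes, or 28.6%, against 37 of all 27025 genes with a window (0.119% of all 32851 windows). All 8 were among the 20 Atf6/Xbp1 arm genes with a window. The sites follow on the strand of the gene, with the element (or its reverse complement) in capitals and 5 flanking bases on each side, because among the members they occur in one arm; the arms were assigned by known regulation, which rests in part on such elements:
Hspa5, chr2:34772020-34772048, plus strand: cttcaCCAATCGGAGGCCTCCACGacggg
Hsp90b1, distal site, chr10:86705633-86705661, minus strand: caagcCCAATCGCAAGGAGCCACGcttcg
Hsp90b1, proximal site, chr10:86705528-86705556, minus strand: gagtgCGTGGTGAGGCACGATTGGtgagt
Calr, chr8:84847070-84847098, minus strand: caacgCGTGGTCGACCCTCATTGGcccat
Canx, chr11:50325795-50325823, minus strand: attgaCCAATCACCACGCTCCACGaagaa
Creld2, chr15:88819515-88819543, plus strand: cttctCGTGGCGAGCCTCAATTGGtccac
Dnajc3, chr14:118937822-118937850, plus strand: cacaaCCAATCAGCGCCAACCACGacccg
Pdia6, chr12:17266486-17266514, plus strand: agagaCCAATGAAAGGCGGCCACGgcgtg
Syvn1, chr19:6046527-6046555, plus strand: cgcaaCCAATCGGCGGTAGCCACGggaac

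A second form, ER stress element II (ATTGG, any 1 base, then CCACG), was present in Dnajb11 and Herpud1, or 7.14% of the 28 genes. Among all 27025 genes with a window 12 held it (0.0365% of all windows). The letters TGATGNAA, a core of the C/EBP-ATF response element to which Atf4 binds as a dimer with C/EBP factors, were present in Asns, Chac1, Trib3 and Herpud1. That is 14.3% of the members with a window, against 1219 of all 27025 genes (3.97% of all windows), and 3 of these 4 genes are among the 8 of the Atf4 arm. The unfolded protein response element core TGACGTG was found in Hspa5 alone among the members, and in 601 of all 27025 genes (2.01% of all windows). None of these motif matches overlapped another. The sites of the Atf4-type letters are shown with the element in capitals on the strand of the gene:
Asns, chr6:7693220-7693237, minus strand: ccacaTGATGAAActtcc
Chac1, chr2:119351044-119351061, plus strand: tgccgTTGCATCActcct
Herpud1, chr8:94386312-94386329, plus strand: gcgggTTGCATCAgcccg
Trib3, chr2:152344034-152344051, minus strand: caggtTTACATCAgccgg

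Herpud1 is the member with letters of both kinds, and its whole window on the plus strand, chr8:94386179-94386478, is printed with the Atf4-type letters first and ER stress element II second in capitals: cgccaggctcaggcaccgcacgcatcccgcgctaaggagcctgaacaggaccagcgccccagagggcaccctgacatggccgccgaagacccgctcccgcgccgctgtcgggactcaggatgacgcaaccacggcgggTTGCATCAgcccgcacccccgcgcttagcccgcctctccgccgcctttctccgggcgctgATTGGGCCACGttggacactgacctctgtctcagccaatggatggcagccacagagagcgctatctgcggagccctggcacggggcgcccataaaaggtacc. A match is a description of the letters and not evidence that a factor binds there.

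**Figure D1:**
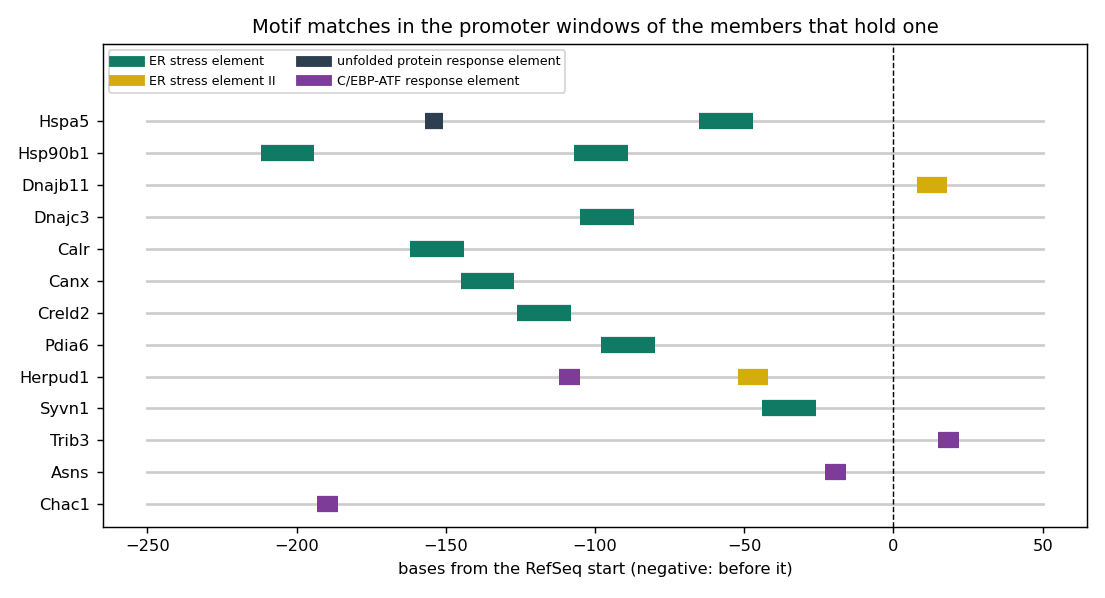
Positions of the motif matches in the promoter windows of the 13 genes that hold one, in bases from the RefSeq start (horizontal axis); each grey line is a window from 250 bases before to 50 after the start, and colours mark the motif. The ER stress element lies before the start in all 8 genes that hold it, while the C/EBP-ATF letters lie in Asns, Chac1, Trib3 and Herpud1.

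The libraries held 14285794 to 20886836 estimated counts in old samples and 15733100 to 21043945 in young samples, of which the 32 genes took 0.373% to 0.537% and 0.438% to 0.602%. Levels are in CPM, the count scaled to the library size after adjustment by the TMM method. All 10 lymphatic endothelial markers were present, with Prox1 at 932 to 1410 CPM in old and 877 to 945 CPM in young samples, and their summed level was 18332 to 22385 CPM in old and 12182 to 14681 CPM in young samples. Mitochondrial genes held 17.74% to 24.05% of counts in old and 17.52% to 18.27% in young samples, and their part in the results was not tested beyond leaving those genes out, which turned no sign among the members. Libraries differed much within an age: Pearson correlations of log2 CPM over genes were 0.679 to 0.814 within and 0.692 to 0.788 between ages. Old sample 1 lay farthest out on the first principal component (30.9% of the variance) and old sample 3 on the second (22.6%). Leave-one-out values are given below for the genes where single samples weigh most.

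No ER stress gene passed the test for a difference between old and young cells. Of 31 genes tested with edgeR's quasi-likelihood test, adjusted over all 15394 tested genes, 0 were called, with adjusted p from 0.888 to 1.00; the test called 0% of all genes. At an unadjusted p under 0.05 the count was also 0 of 31 in edgeR, against 5.56% of all tested genes (2.86% higher and 2.70% lower in old cells). DESeq2 called 0 of the 29 members to which it gave a p, against 0.844% of all genes; it gave none to Eif2ak3 and Asns, in each of which 1 old sample stood far above the rest. Limma-voom called 0 of 31, against 0.0195%. Neither tool gave a member an unadjusted p under 0.05. The fitted log2 fold change, old over young, was positive for 13 genes and negative for 18, with a median of −0.07 against 0.02 over all tested genes. The median size of a change regardless of sign was 0.25 for the members and 0.61 over all genes. By arm it was 0.23 for the Atf6/Xbp1 genes and 0.87 for the Atf4 genes. Such sizes depend on the level and spread of a gene, and genes of like level were not compared.

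These values do not show that the genes were at the same level in both ages, and the 95% intervals say how large a difference the samples leave room for. The interval lay within a 2-fold change in either direction for 8 of the 31 genes, or 25.8%, against 5.34% of all tested genes. The 8 were Hspa5, Hsp90b1, Dnajc3, Calr, Canx, Pdia3, P4hb and Sel1l, which are among the more abundant members. The share among all genes of like level was not counted. For none of the 7 tested genes of the Atf4 arm did the interval lie within 2-fold. The spread between samples of an age, as edgeR's biological coefficient of variation, had a median of 42.3% for the Atf6/Xbp1 arm and 91.4% for the Atf4 arm, against 84.2% over all tested genes.

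**Figure D2:**
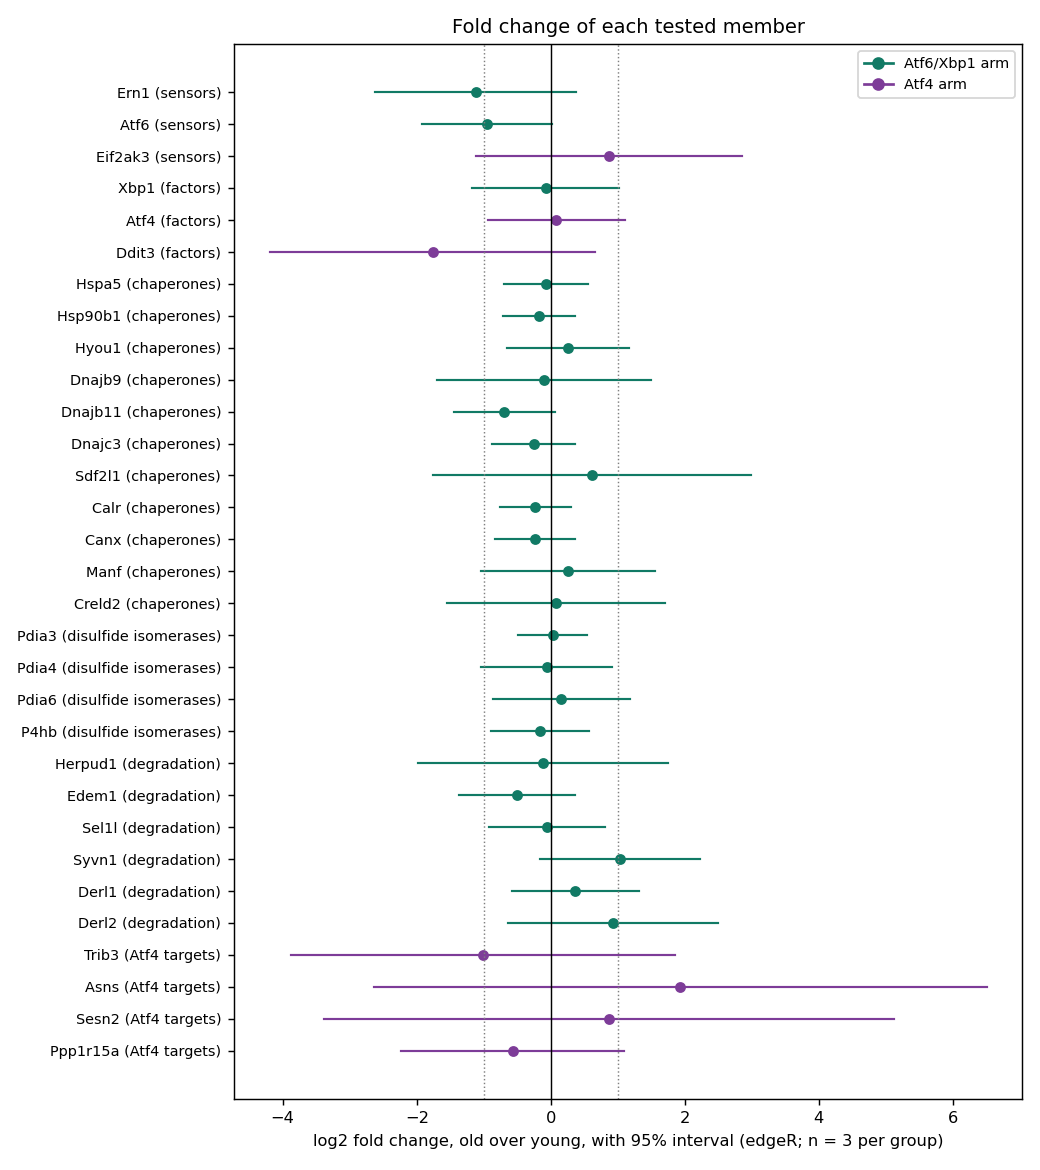
Fitted log2 fold change, old over young (horizontal axis), of the 31 tested genes, with 95% intervals as lines, in green for the Atf6/Xbp1 arm and purple for the Atf4 arm; dotted lines mark a 2-fold change. Every interval includes 0, the narrowest belong to abundant chaperones such as Pdia3 and Calr, and the widest to Asns and Sesn2.

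Of the 3 sensors, Atf6 and Ern1 had lower means in old cells and Eif2ak3 a higher one, none beyond the spread between samples. Atf6 (chromosome 1, 170704674 to 170867771, minus strand, in GRCm38 as for all genes below) had 89.7, 57.5 and 65.5 CPM in old samples 1, 2 and 3, against 71.1, 152 and 190.2 CPM in young samples 1, 2 and 3. The groups overlapped through young sample 1, the lowest young value. Its log2 fold change was −0.96 (SE 0.43), the smallest p among the members (edgeR adjusted p = 0.888). Without young sample 1 the unadjusted edgeR p was 0.0101 and without old sample 1 it was 0.0408. With each of the other 4 samples left out in turn it lay between 0.113 and 0.214.

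Ern1 (chromosome 11, 106394650 to 106487852, minus strand), the kinase and RNase that splices Xbp1, had 11.1, 29.3 and 48.5 CPM in the old samples, against 43.9, 43.5 and 107 CPM in the young samples. The highest old value lay above 2 of the young ones. The log2 fold change was −1.12 (SE 0.66; edgeR adjusted p = 0.891), and it ran from −1.68 without old sample 3 to −0.56 without young sample 3. Eif2ak3 (chromosome 6, 70844515 to 70905245, plus strand), the eIF2 kinase of the ER, had 165, 20.0 and 15.6 CPM in the old samples, against 24.5, 39.7 and 45.2 CPM in the young samples. Old sample 1 stood above every other sample, and the other 2 old samples lay below every young one. The log2 fold change was 0.87 (SE 0.87; edgeR adjusted p = 0.950) and −1.04 without old sample 1.

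The factors Xbp1 and Atf4 had nearly equal means in both ages, with wide spread. Xbp1 (chromosome 11, 5520659 to 5525893, plus strand) had 70.9, 178 and 308 CPM in the old samples, against 142, 222 and 224 CPM in the young samples. Old samples held the lowest and the highest value of the 6, and the log2 fold change was −0.08 (SE 0.48; edgeR adjusted p = 0.998). Atf4 (chromosome 15, 80255184 to 80257541, plus strand) had 69.8, 203 and 90.4 CPM in the old samples, against 136, 81.5 and 125 CPM in the young samples. Again both extremes were old samples, with a log2 fold change of 0.08 (SE 0.45; edgeR adjusted p = 0.996) that was −0.04 with library size as the only scaling. The interval of the ratio ran from 0.442 to 2.03 for Xbp1 and from 0.521 to 2.15 for Atf4.

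Ddit3 (chromosome 10, 127290774 to 127296288, plus strand), the CHOP factor that Atf4 induces in lasting stress, was low in all old samples. It had 3.89, 2.62 and 4.74 CPM in the old samples, against 3.04, 20.9 and 14.3 CPM in the young samples. Young sample 1 fell among the old values and the other 2 young samples lay above all of them. The log2 fold change was −1.77 (SE 1.07; edgeR adjusted p = 0.901). Ddit3 shares 105 exon bases on its own strand with a second protein-coding gene of that name, which had no row in the deposited table. How reads of those bases were assigned is not known. It also shares 68 exon bases with Mars on the other strand, and with strandedness not stated its counts are uncertain to that extent too. The limit of strandedness holds for further members, among them Eif2ak3 (485 exon bases shared with Gm43292), Hsp90b1 (415 with 1810014B01Rik), Manf (146 with Dcaf1) and Syvn1 (91 with Mrpl49).

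**Figure D3:**
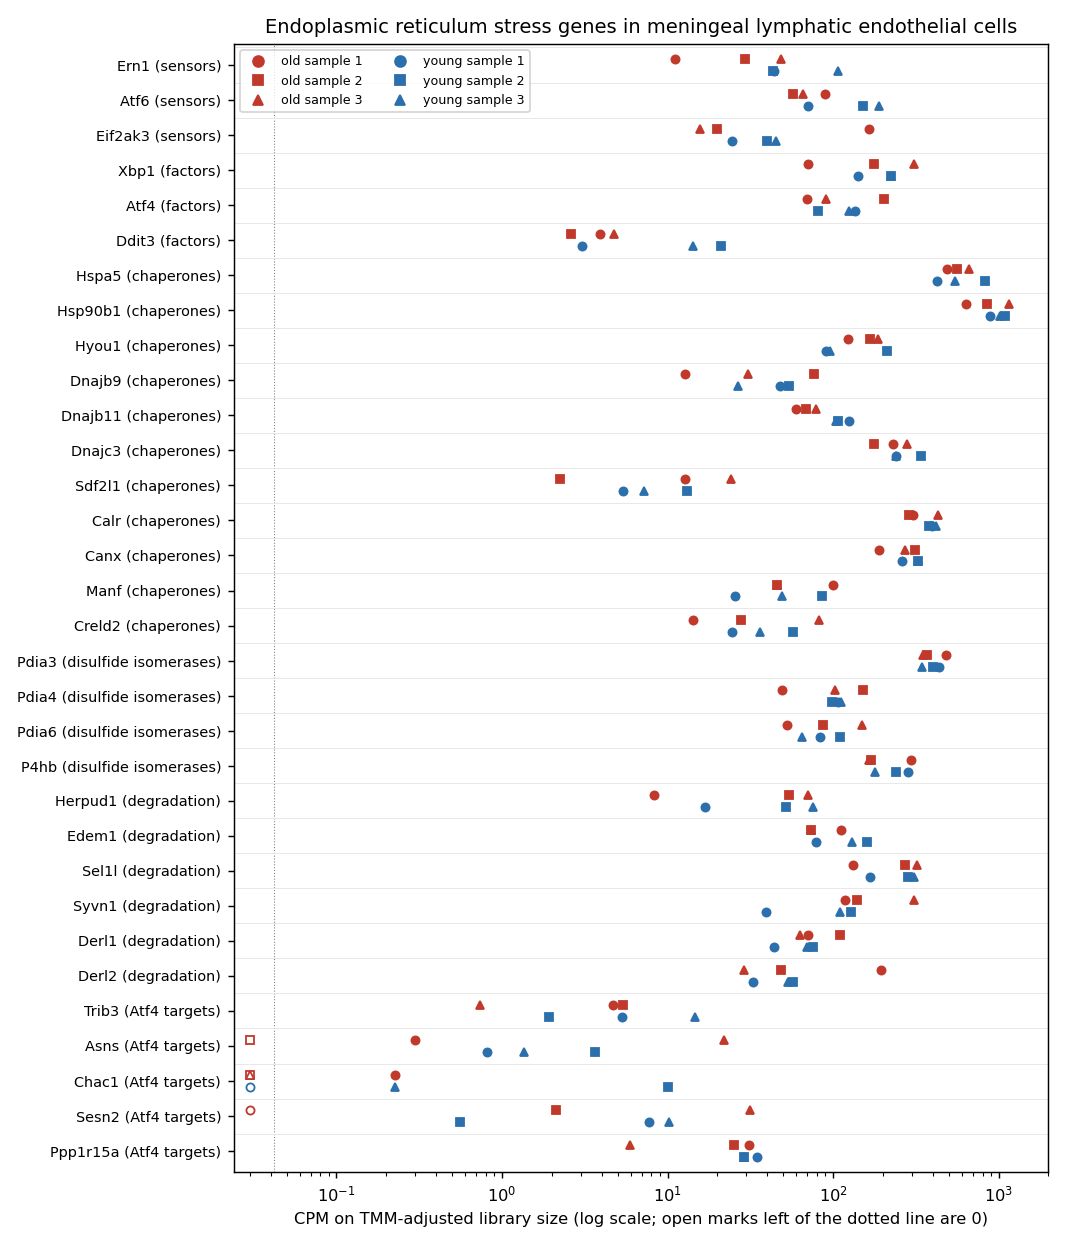
Level of each of the 32 genes in each sample, in CPM on a log axis, with old samples (red) above young samples (blue) in each row, marker shape giving the sample number and open marks a count of 0. Dnajb11 is the one tested gene whose old and young values do not overlap, at 59.7 to 79.0 CPM in old and 104 to 125 CPM in young samples.

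Among the 11 chaperones and co-chaperones, Dnajb11 (also called ERdj3), a soluble partner that hands unfolded proteins to BiP, was the member whose groups did not overlap. Dnajb11 (chromosome 16, 22857845 to 22879634, plus strand) had 59.7, 69.0 and 79.0 CPM in the old samples, against 125, 107 and 104 CPM in the young samples. Its log2 fold change was −0.69 (SE 0.33; edgeR adjusted p = 0.889), and with each sample left out in turn it stayed between −0.80 and −0.60. It was the 1 of 31 tested members with groups that do not overlap, against 12.0% of all tested genes (5.56% with old above young and 6.44% with old below young), so this count is no result about the members.

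Hspa5 (chromosome 2, 34771970 to 34777547, plus strand), which encodes BiP, the main Hsp70 chaperone of the ER and the usual readout of the Atf6 branch, had 490.1, 558 and 666 CPM in the old samples, against 424, 832 and 544 CPM in the young samples. All 3 old values lay inside the range of the young ones. The ratio of old to young was 0.952, with a 95% interval from 0.618 to 1.47 (edgeR adjusted p = 0.988). Hsp90b1, the ER form of Hsp90, had 880 ± 262 CPM in old and 997 ± 106 CPM in young cells (SD, n = 3 each), a ratio of 0.883 with an interval from 0.607 to 1.28.

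The lectin chaperones, which hold glycoproteins until they fold, had overlapping levels too. Calr (chromosome 8, 84841850 to 84846934, minus strand) had 303, 288 and 428 CPM in the old samples, against 396, 379 and 419.8 CPM in the young samples, a log2 fold change of −0.23 (SE 0.23; edgeR adjusted p = 0.952). Old sample 3 held the highest value and the other 2 old samples the lowest. Canx, its membrane-bound relative, had 258 ± 62.1 CPM in old and 304 ± 37.7 CPM in young cells, a log2 fold change of −0.24 (SE 0.26).

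The other co-chaperones spanned a range of log2 fold changes from −0.25 for Dnajc3, a BiP partner that also inhibits eIF2 kinases, to 0.61 for Sdf2l1, a small partner of Dnajb11. Sdf2l1 was low and uneven, at 13.1 ± 11.0 CPM in old and 8.58 ± 4.06 CPM in young cells. Hyou1, the large nucleotide exchange factor of BiP, had 159 ± 33.4 CPM in old and 133 ± 69.1 CPM in young cells. Manf, a secreted ER protein with cytoprotective activity, had 63.6 ± 31.0 and Creld2, an ER stress-induced protein, 41.4 ± 35.8 CPM in old cells, against 53.4 ± 30.0 and 39.3 ± 16.4 CPM in young cells. Dnajb9, a BiP partner that restrains Ern1, had 40.0 ± 33.1 CPM in old and 42.9 ± 14.6 CPM in young cells. For each of these genes the SD within at least 1 age was larger than the difference of the means.

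The 4 disulfide isomerases, which form and rearrange disulfide bonds in the ER, had log2 fold changes between −0.16 and 0.16. Pdia3 (also called ERp57), which works with Calr and Canx on glycoproteins, had 400.4 ± 72.8 CPM in old and 393 ± 46.6 CPM in young cells (SD, n = 3 each), with a ratio of 1.02 and a 95% interval from 0.714 to 1.46. Its log2 fold change of 0.03 was −0.12 with library size as the only scaling. P4hb, which also forms part of the collagen prolyl hydroxylase, had 211 ± 75.2 CPM in old and 235 ± 51.5 CPM in young cells. Pdia4 and Pdia6 had 101 ± 51.4 and 96.4 ± 49.0 CPM in old cells, against 106 ± 6.16 and 86.4 ± 22.8 CPM in young cells. In Pdia4 the old samples ran from 49.2 to 152 CPM around a narrow young range of 98.9 to 111 CPM.

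The 6 genes of ER-associated degradation, which carries misfolded proteins out to the proteasome, split evenly in sign, 3 positive and 3 negative. Syvn1 (chromosome 19, 6046576 to 6053712, plus strand), the ubiquitin ligase Hrd1 at the centre of the machinery, had 118, 139 and 310.2 CPM in the old samples, against 39.5, 128 and 110.2 CPM in the young samples. The groups overlapped by 1 old sample, old sample 1, which lay below young sample 2. The log2 fold change was 1.03 (SE 0.53; edgeR adjusted p = 0.891). It was 0.47 without old sample 3 and 0.67 without young sample 1.

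Derl2 (chromosome 11, 71007164 to 71019841, minus strand), a membrane protein of the channel, had 195, 48.2 and 29.1 CPM in the old samples, against 32.6, 57.1 and 53.1 CPM in the young samples. Old sample 1 stood alone, and the log2 fold change of 0.93 (SE 0.69; edgeR adjusted p = 0.932) was −0.30 without it. Exons of Derl2 share 231 bases with Mis12 on the other strand. Its relative Derl1 had 81.2 ± 25.5 CPM in old and 63.0 ± 17.0 CPM in young cells.

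Edem1 (chromosome 6, 108828641 to 108859356, plus strand), the lectin-like protein that marks misfolded glycoproteins and a textbook Xbp1 target, had 112, 73.7 and 73.4 CPM in the old samples, against 79.3, 159 and 129 CPM in the young samples. Young sample 1 again fell among the old values, and the log2 fold change was −0.51 (SE 0.38; edgeR adjusted p = 0.932). Sel1l, the adaptor of Syvn1, had 243 ± 98.6 CPM in old and 253 ± 76.1 CPM in young cells. Herpud1, which organises the ligase complex, had 8.23, 54.3 and 70.6 CPM in the old samples, against 16.9, 52.0 and 75.6 CPM in the young samples. In each age sample 1 held the lowest Herpud1 value, a difference within ages far larger than that between them.

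The target genes of the Atf4 arm were low, and 1 library decided most of their differences. Asns (chromosome 6, 7675169 to 7693254, minus strand), which makes asparagine, had 0.299, 0 and 21.9 CPM in the old samples, against 0.807, 3.66 and 1.35 CPM in the young samples. Old sample 3, with 449 counts, was above every other sample and the other 2 old samples, with 4 and 0 counts, were below every young one. The log2 fold change was 1.93 (SE 2.01; edgeR adjusted p = 0.952) and −3.64 without old sample 3.

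Sesn2, a stress-induced inhibitor of mTORC1, had 0, 2.11 and 31.5 CPM in the old samples, against 7.70, 0.559 and 10.2 CPM in the young samples. Old sample 3 was again the highest of all 6 samples. The fitted log2 fold change was 0.87 (SE 1.87), and −2.53 without old sample 3. Sesn2 and Asns therefore shared their highest sample.

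Trib3, a pseudokinase that Atf4 and Ddit3 induce, and Ppp1r15a (also called GADD34), which returns the eIF2 phosphatase to work, had the opposite extreme in that library. Trib3 had 4.71, 5.38 and 0.732 CPM in the old samples, against 5.34, 1.93 and 14.6 CPM in the young samples. Ppp1r15a had 31.2, 25.3 and 5.96 CPM in the old samples, against 34.6, 29.2 and 29.0 CPM in the young samples. In both genes old sample 3 was the lowest of the 6. The log2 fold change of Trib3 was −1.01 (SE 1.26), and it was −0.53 without old sample 3 and −0.03 without young sample 3, the highest of the 6. That of Ppp1r15a was −0.57 (SE 0.73), and −0.13 without old sample 3. Chac1, which breaks down glutathione, had 3, 0 and 0 counts in the old samples, against 0, 197 and 5 counts in the young samples, so that young sample 2 held nearly all of its counts. With 1 read worth 0.0488 to 0.0748 CPM in old and 0.0450 to 0.0621 CPM in young samples, a count of 0 allows a level of up to 0.146 to 0.224 CPM in old and 0.135 to 0.186 CPM in young samples (3 counts; counting error only).

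The arms were then set beside each other within each sample. The mean log2 CPM of the 24 Atf6/Xbp1 arm genes was 6.45, 6.73 and 7.05 in old samples 1, 2 and 3, against 6.51, 7.17 and 6.95 in young samples 1, 2 and 3. The group means were 6.74 ± 0.30 in old and 6.88 ± 0.33 in young cells (SD, n = 3 each), a difference of −0.13. In both ages sample 1 had the lowest value, and the ranges overlapped almost wholly.

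For the 7 tested Atf4 arm genes the mean was 2.62, 2.65 and 3.51 in the old samples, against 3.40, 3.33 and 4.14 in the young samples. Old samples 1 and 2 lay below every young sample, and old sample 3 lay among them. The group means were 2.93 ± 0.50 in old and 3.62 ± 0.45 in young cells, a difference of −0.70. This score averages log2 values, so counts near 0 weigh heavily in it. In old samples 1, 2 and 3, Asns had 4, 0 and 449 counts and Sesn2 had 0, 29 and 645 counts. Their fitted log2 fold changes compare group levels and were positive, at 1.93 and 0.87. How much of the −0.70 rests on counts near 0 was not measured. The median fitted log2 fold change of the same 7 genes had the other sign, at 0.08. With 7 genes this median is the value of the gene in the middle, here Atf4 itself. That median was −0.99 without old sample 1, −0.51 without old sample 2, −0.53 without old sample 3 and −0.12 without young sample 2, and stayed positive without young sample 1 or 3. It was −0.04 with library size as the only scaling and −0.02 with Herpud1 counted in this arm.

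The Atf6/Xbp1 arm minus the Atf4 arm was 3.83, 4.08 and 3.54 log2 units in the old samples, against 3.12, 3.84 and 2.81 in the young samples. Young sample 2 lay within the old range and the other 2 young samples below it. The means were 3.82 ± 0.27 in old and 3.26 ± 0.53 in young cells, a difference of 0.56. The difference was 0.33 to 0.85 with 1 sample left out in turn and 0.94 with the sensors and the factors Xbp1 and Atf4 left out. With a prior count of 0.5, which gives counts near 0 more weight, it was 0.76. No p is given for these scores, since the genes were chosen with earlier results of these data known. Within an arm, the median log2 fold change was −0.07 for the Atf6/Xbp1 genes, 9 of them positive and 15 negative, against 4 positive and 3 negative in the Atf4 arm.

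**Figure D4:**
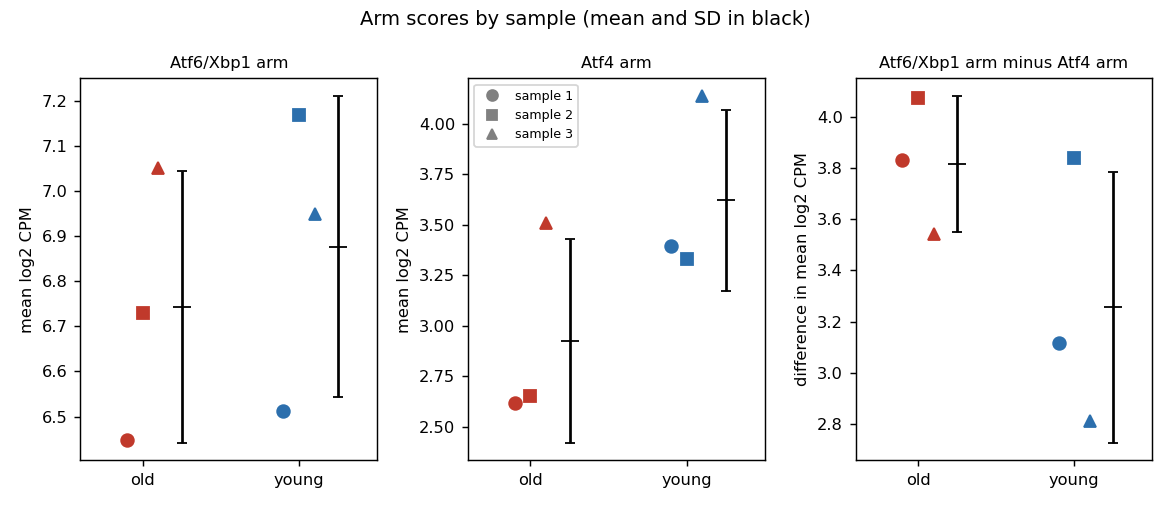
Mean log2 CPM of the Atf6/Xbp1 arm genes (left), of the Atf4 arm genes (middle) and the difference between the arms (right) in each sample, old in red and young in blue, with the group mean and SD in black. The groups overlap in all 3 panels; the Atf4 arm averages 2.93 in old and 3.62 in young cells.

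The highest and lowest values of the ER stress genes were spread unevenly over the samples. Old sample 1 had the lowest value for 13 of the 31 tested genes, Xbp1, Herpud1, Dnajb9, Pdia4 and Hsp90b1 among them, and the highest for 5. Old sample 3 had the highest value for 10 and the lowest for 6. Old sample 2 had the highest for 4 and the lowest for 6. Young samples 1, 2 and 3 had the lowest value for 5, 0 and 1 genes and the highest for 2, 5 and 5. The same counts over all tested genes were not made, so these are no result about the members. Old sample 1 also had the fewest genes with a count, 17074, of all samples.

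To compare levels between genes, CPM was divided by the length of the longest coding transcript in kilobases. Per kilobase, Hsp90b1 was highest at 311 in old and 353 in young cells. Hspa5 followed at 156 in old and 163 in young cells, Calr at 156 and 182, and Pdia3 at 145 and 142. In old cells these 3 differed from each other by less than the spread between samples, while in young cells the values of Calr and Pdia3 did not overlap. The factors Xbp1 and Atf4 came next among the regulators, at 87.1 and 70.2 in old cells and 92.0 and 66.2 in young cells. The sensors were far lower, with Atf6 at 9.79 in old and 19.0 in young cells, Eif2ak3 at 14.8 and 8.09, and Ern1 at 4.27 and 9.31. The lowest were Trib3, Sesn2, Asns and Chac1, each under 4 CPM per kilobase in both ages.

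The fold changes were also read by the promoter letters shown above, as a description. The 8 genes with an ER stress element had a median log2 fold change of −0.13 (3 positive, 5 negative, from −0.25 to 1.03), and the 19 other tested genes with a window a median of −0.08. Of the 3 tested genes with the Atf4-type letters, Asns was positive and Trib3 and Herpud1 were negative. Dnajb11 and Herpud1, which hold ER stress element II, were both negative at −0.69 and −0.12.

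Other genes of the pathway were read from 6 lists, as counts at an unadjusted edgeR p under 0.05 beside the 5.56% of all tested genes; none of their members passed after adjustment. Of 27 further folding and glycosylation genes, 4 were lower and 0 higher, with a median log2 fold change of −0.07. These were Cnpy2, Magt1, Fkbp2 and Erp29. Cnpy2, an ER protein of the saposin-like family, had 10.5 ± 3.43 CPM in old and 56.0 ± 27.0 CPM in young cells, a log2 fold change of −2.41 (SE 0.65; edgeR adjusted p = 0.693). Magt1, a subunit of the oligosaccharyltransferase, had 67.4 ± 17.4 CPM in old and 139.5 ± 33.9 CPM in young cells. Fkbp2, a prolyl isomerase, had 11.4 ± 6.64 and Erp29, an ER protein related to the disulfide isomerases, 33.1 ± 10.6 CPM in old cells, against 37.4 ± 13.0 and 69.6 ± 8.16 CPM in young cells. The choice by p largely fixes that their groups do not overlap; over the whole list 4 genes lay wholly below, against 6.44% of all tested genes, and 1, Mogs, wholly above.

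Of 17 tested genes for translocation into the ER, 1 was lower (Srpr, the receptor of the signal recognition particle, with 61.6 ± 23.5 CPM in old and 151 ± 93.1 CPM in young cells) and 0 were higher. The median was −0.23, and their summed level was 1422 to 1573 CPM in old and 1632 to 1724 CPM in young samples, without overlap. That sum includes Srpr, picked by its p, with 34.6, 72.5 and 77.7 CPM in the old samples, against 258, 105 and 89.1 CPM in the young samples. With Srpr taken out of each sum, old and young samples overlap, so the separation is not one of the list as a whole. Of 18 further degradation genes, 1 was lower (Rnf139, a ubiquitin ligase of the ER, with 24.3 ± 17.4 CPM in old and 74.0 ± 21.6 CPM in young cells) and 0 were higher. Of the 7 tested genes in the list of relatives and proteases of Atf6, which also holds Traf2, neither of these, 0 passed in either direction. The smallest p there belonged to Creb3, a membrane-bound factor like Atf6, at 6.79 ± 8.06 CPM in old and 29.4 ± 19.2 CPM in young cells, and to Atf6b, the paralogue of Atf6, at 39.1 ± 24.8 CPM in old and 23.2 ± 1.35 CPM in young cells.

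On the Atf4 side, of 13 genes for eIF2, its kinases and its exchange factor, 1 was higher and 1 lower. Eif2s3x, a subunit of eIF2, had 101.5 ± 51.7 CPM in old and 48.1 ± 13.2 CPM in young cells, and Eif2b3, a subunit of the exchange factor that phosphorylated eIF2 blocks, had 3.35 ± 2.64 CPM in old and 22.3 ± 10.3 CPM in young cells. The summed level of the 13 genes was 655 to 700.5 CPM in old and 519 to 546 CPM in young samples, also without overlap and with old above young. That sum includes Eif2s3x and Eif2b3, both picked by their p and differing in opposite directions. The separation is not shown to be one of the list as a whole. How often sums of other gene sets of such sizes separate was not measured, for this list or for the translocation genes. Of 33 tested further Atf4 target genes, 1 was higher and 0 lower, with a median of −0.15. The higher one was Cars, the cysteinyl-tRNA synthetase, at 34.1 ± 13.0 CPM in old and 6.10 ± 4.41 CPM in young cells (edgeR adjusted p = 0.888). Their summed level was 987 to 1680 CPM in old and 1101 to 1600 CPM in young samples.

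Markers of other cell types and of handling were measured beside these genes, since cells with much secretion carry much ER. A marker called higher or lower in old cells had an unadjusted edgeR p under 0.05, and no marker passed after adjustment. Of all tested genes, 2.86% were higher and 2.70% lower at that p. In bulk samples, fewer cells of a type and less RNA per cell cannot be told apart. The 12 fibroblast markers, which include the heavily secreted collagens, summed to 3249 to 3785 CPM in old and 6061 to 9153 CPM in young samples, and 7 were lower at an unadjusted edgeR p under 0.05. Col1a2, Col1a1, Col3a1 and Postn had the smallest p among them, with Col1a1 at 545 ± 153 CPM in old and 1532 ± 389 CPM in young cells. The 14 macrophage markers summed to 847 to 2278 CPM in old and 834 to 4723 CPM in young samples, with young sample 1 the lowest of all. Of these markers, 13 had a negative log2 fold change and 1 a positive one, with a median of −1.55. The positive one, Mrc1, a scavenger receptor shared with lymphatic endothelium, was also the 1 with an unadjusted edgeR p under 0.05. It had 611 ± 173 CPM in old and 405 ± 45.1 CPM in young cells. Young sample 1 also had the lowest young value for 18 of the 31 tested ER stress genes, and old sample 1 the lowest old value for 16. The share over all tested genes was not counted, and a link to the macrophage markers was not tested. The sort would remove macrophages and most B-lineage cells by CD45, fibroblasts, pericytes and smooth muscle by CD31, and most blood endothelium by podoplanin.

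The 11 plasma and B cell markers in the table summed to 215 to 1777 CPM in old and 73.6 to 1111 CPM in young samples. Of the 6 tested, Igkc, the kappa chain of antibodies, was higher, at 14.5, 637 and 497 CPM in the old samples, against 5.83, 2.08 and 0 CPM in the young samples. Mzb1, an ER co-chaperone of B-lineage and plasma cells, was at 0, 0 and 0.537 CPM in the old samples and at 0, 0.254 and 0 CPM in the young samples. The 10 pericyte and smooth muscle markers summed to 973 to 2019 CPM in old and 644 to 983 CPM in young samples, with 3 higher: Abcc9, Myh11 and Acta2. Old sample 1, which stood alone in Eif2ak3 and Derl2, had the highest sum.

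The 10 blood endothelial markers summed to 1157 to 1768 CPM in old and 605 to 772 CPM in young samples, and 5 were higher, with Vwf, Abcb1a, Cldn5 and Plvap first by p. Among the lymphatic markers 6 were higher at an unadjusted edgeR p under 0.05, led by Ccl21a, Mmrn1, Nrp2 and Reln, and none passed after adjustment. The 17 immediate-early and heat shock genes, which respond to tissue handling, summed to 4062 to 4556 CPM in old and 3691 to 5847 CPM in young samples. Of these, Dnajb1, a cytosolic partner of Hsp70, was higher, at 75.6 ± 41.0 CPM in old and 27.8 ± 3.45 CPM in young cells. The part of these cell types and of handling in the ER stress values was not tested.

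**Figure D5:**
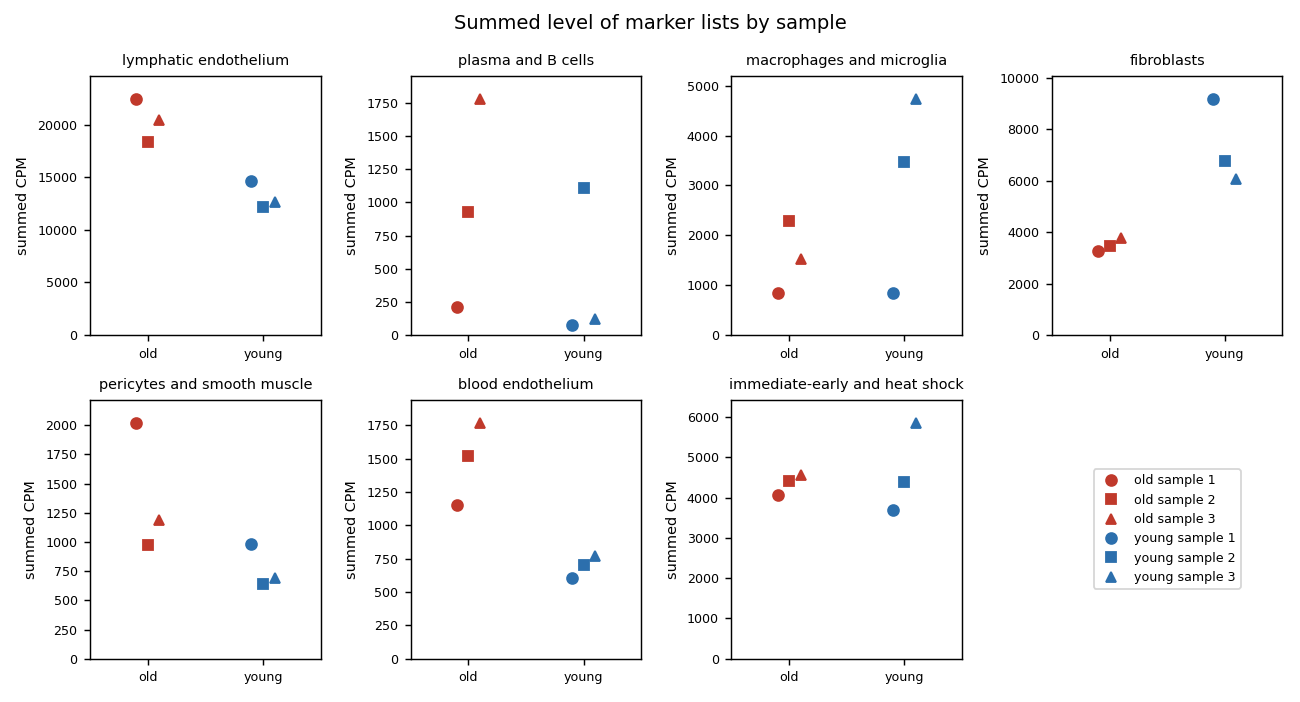
Summed CPM of each marker list in each sample, old (red) left of young (blue), marker shape giving the sample number. Fibroblast sums are lower in every old sample (3249 to 3785 CPM) than in every young one (6061 to 9153 CPM), and lymphatic and blood endothelial sums are higher.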

How the data were processed

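The authors deposited 1 table of estimated counts per Ensembl gene for 3 old and 3 young samples; per the submitters' processing notes the tools were FastQC and Salmon and the build mm10, without versions. No source used here gives the annotation, how transcripts were summed to genes, or the strandedness. The values were already whole numbers. Symbols (22738 of 22964 genes), positions and transcript lengths came from GENCODE M21 (GRCm38, which mm10 denotes).

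Old and young were compared with edgeR 4.0.16 in R 4.3.3: filterByExpr (minimum of 10 counts, minimum total of 15), normalization factors by TMM, a quasi-likelihood fit (robust, no covariate), a two-sided test and Benjamini-Hochberg adjustment over 15394 genes at 0.05. SE is the log2 fold change over the root of F, and 95% intervals use the fit's degrees of freedom. CPM is the count over the TMM-adjusted library size; scores are means of log2 CPM with a prior count of 2. Alternatives included DESeq2 1.42.0 and limma-voom (limma 3.58.1). The fits were tested on simulated data. By blastn, at 95% identity over 200 bases, Hsp90b1, Eif2ak3 and Derl1 each matched a transcript of another gene. For Hsp90b1 (1810014B01Rik, 293 counts over the 6 samples) and Eif2ak3 (Gm43292) that gene shares exon bases on the other strand of the same locus. Gm43292 and the match of Derl1, Gm35638, had no row in the deposited table, so their counts are not known.

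The members and lists were chosen with earlier results of these data known. All members were to be named, with every sample's value for the sensors, factors, Hspa5 and the 10 smallest p, and from each list up to 4 genes at an unadjusted p under 0.05, otherwise the 2 with the smallest p. Values in every sample for other genes were added after they were seen. Protein tails, planned as a description, were not analysed here.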

Additional observations from a re-analysis of the deposited data

How the results depend on the processing

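Member calls after adjustment stayed at 0 under every other fit and with any 1 sample left out. Over all genes DESeq2 called 130 and limma-voom 3, and edgeR 0 to 1 with 1 sample left out. With library size as the only scaling, which moved the median log2 fold change of all genes to −0.12 against 0.02, Atf6 and Dnajb11 had an unadjusted p under 0.05 (2 lower members, against 3.55% of all genes) and 2 members had groups that did not overlap, against 12.4% of all genes. Without the filter on low counts 1 member, Atf6, was lower at that p, against 3.46% of all genes. The labels do not say whether old and young samples of equal replicate number were handled together. Over all genes their deviations from the group mean correlated weakly, at 0.079, 0.053 and −0.012. With the replicate block 1 member, Syvn1, was higher at an unadjusted edgeR p under 0.05, against 2.07% of all genes. The median of the Atf4 arm was −1.01 in limma-voom, −0.75 with the replicate block and −0.57 with the sensors, Xbp1 and Atf4 left out. It also turned sign with library size only (−0.04, the value of Atf4 itself), without the filter, where Chac1 enters (−0.25), and with Herpud1 in that arm (−0.02). The median of so few genes is the value of the gene in the middle, or the mean of the 2 in the middle. Its turns of sign therefore do not show a shift of the whole arm, and why the single genes moved was not tested. The arm difference was 0.94 with the sensors, Xbp1 and Atf4 left out and 0.76 with a prior count of 0.5. With 1 sample left out in turn, lower members numbered 0 to 1, higher members 0 to 0, members without overlap 1 to 7 (19.5% to 24.3% of all genes, since fewer samples overlap less often), the median of the members ran from −0.31 to 0.02, of the Atf6/Xbp1 arm from −0.29 to 0.03, of the Atf4 arm from −0.99 to 0.23, and the arm difference from 0.33 to 0.85.

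Some log2 fold changes turned sign, none of them past the test. In limma-voom these were Eif2ak3 (−0.11), Atf4 (−0.05), Creld2 (−0.08), Asns (−1.01) and Sesn2 (−1.03). With the replicate block they were Eif2ak3 (−0.10), Atf4 (−0.06), Creld2 (−0.23) and Asns (−1.32). With library size only they were Atf4 (−0.04), Creld2 (−0.04) and Pdia3 (−0.12). With 1 sample left out in turn the values ran from −1.04 to 1.34 for Eif2ak3, −0.66 to 0.31 for Xbp1, −0.51 to 0.36 for Atf4, −0.27 to 0.23 for Hspa5, −0.42 to 0.01 for Hsp90b1 and −0.99 to 0.32 for Dnajb9. They ran from −0.19 to 1.11 for Sdf2l1, −0.23 to 0.76 for Manf, −0.90 to 0.48 for Creld2, −0.13 to 0.12 for Pdia3, −0.48 to 0.27 for Pdia4 and −0.31 to 0.45 for Pdia6. They ran from −0.63 to 0.37 for Herpud1, −0.32 to 0.24 for Sel1l, −0.30 to 1.35 for Derl2, −3.64 to 2.78 for Asns and −2.53 to 1.45 for Sesn2. Trib3 kept its sign and ran from −1.48 to −0.03, Ern1 from −1.68 to −0.56, Ppp1r15a from −0.99 to −0.13 and Edem1 from −0.74 to −0.28.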
